A study of Mus musculus with 2 samples.

Results

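The chemokine system of inguinal white fat was described in 65 protein-coding genes, out of 37315 genes listed in the deposited counts. They were chosen by symbol alone: Ccl, Cxcl, Ccr or Cxcr followed by digits, and the genes Xcl1, Xcr1, Cx3cl1, Cx3cr1, Ackr2 and Ackr3. Of these, 44 encode ligands and 21 encode receptors. Levels are given as CPM, read counts scaled to the size of the library, and a gene is called measured where its average over both libraries reached 0.5 CPM, which held for 39 members (25 ligands and 14 receptors).

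One library came from C57BL/6 male mice given vehicle and the other from C57BL/6 male mice given entacapone. All were 23 weeks old and obese from a high-fat diet, so the vehicle group is itself obese and no lean group enters the comparison. Entacapone is a Parkinson disease drug that blocks catechol-O-methyltransferase and has been described to block FTO, an RNA demethylase, as well. The sources used here give no number of mice behind a library, no dose and no duration. Because each group is a single library, no replicate error, test or p-value exists, and every difference below separates 2 libraries and not 2 treatments. Ratios are entacapone over vehicle, on the log2 scale unless a fold is named, with an exact 95% interval in brackets that covers counting error only.

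Chemokines are small secreted proteins that guide leukocytes along concentration gradients, and they signal through G protein-coupled receptors on the moving cell. Their family names record the spacing of the first cysteines (CC, CXC, CX3C and XC). Inflammatory ligands are induced by cytokines and microbial products, whereas homeostatic ligands place lymphocytes and dendritic cells within lymphoid tissue. Atypical receptors bind ligands without classical G protein signalling and remove them. In obese fat, monocytes that carry CCR2 are known to enter and become macrophages.

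The libraries held 13620056 counted reads (vehicle) and 12979673 counted reads (entacapone). The tissue label was met by its markers: all 6 adipocyte genes listed were measured, summing to 33431 CPM (vehicle) and 34800 CPM (entacapone). Markers of other tissues differed between the libraries. In the same order, the 5 liver markers summed to 302 and 77.7 CPM, the 7 epithelium markers to 22.9 and 86.8 CPM, and the 5 skeletal muscle markers to 1030 and 1600 CPM. The part of these tissues in the values below was not tested.

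Of the members measured, 6 differed by at least 2-fold with an interval that held no equality. The chemokine receptor Ccr7 and the ligands Ccl21a, Ccl22 and Ccl17 were higher in the entacapone library, and the ligand Ccl8 and the receptor Cxcr3 were lower. The 4 higher genes were 10.3% of the members measured, against 1.97% of all 14497 genes measured. One of them, Ccl17, passed the limit only through the entacapone library, and with 0.5 CPM required in each library 3 of 36 members were higher. The share of all genes under that stricter limit was not computed, so the 1.97% is not its background. The 2 lower genes were 5.13% of the members, against 3.88% of all genes, a share near that background. Both directions together held 6 members, against 5.86% of all genes. Low counts reach 2-fold more easily: among all genes with a mean of 1 to 5 CPM, 5.31% were higher and 10.7% lower by this rule. At any size beyond counting error, 5 members were higher, against 19.1% of all genes, and 7 were lower, against 20.1% of all genes. Those counts are 12.8% and 17.9% of the members, below the background, and the 12 together stand against 39.2% of all genes. With a 1.5-fold limit 4 members were higher and 4 lower, against 4.28% and 7.94% of all genes and 12.2% in both directions. Without the interval, 5 were at least 2-fold higher and 4 at least 2-fold lower, against 2.62% and 4.61% and, in both directions, 7.24%. The median log2 ratio with 0.5 CPM added was -0.10 over the ligands and -0.18 over the receptors, beside 0.00 over all genes measured (0.002 before rounding). The ligands' mean was 0.07, of the opposite sign to their median, while the receptors' mean was -0.21.

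**Figure D1:**
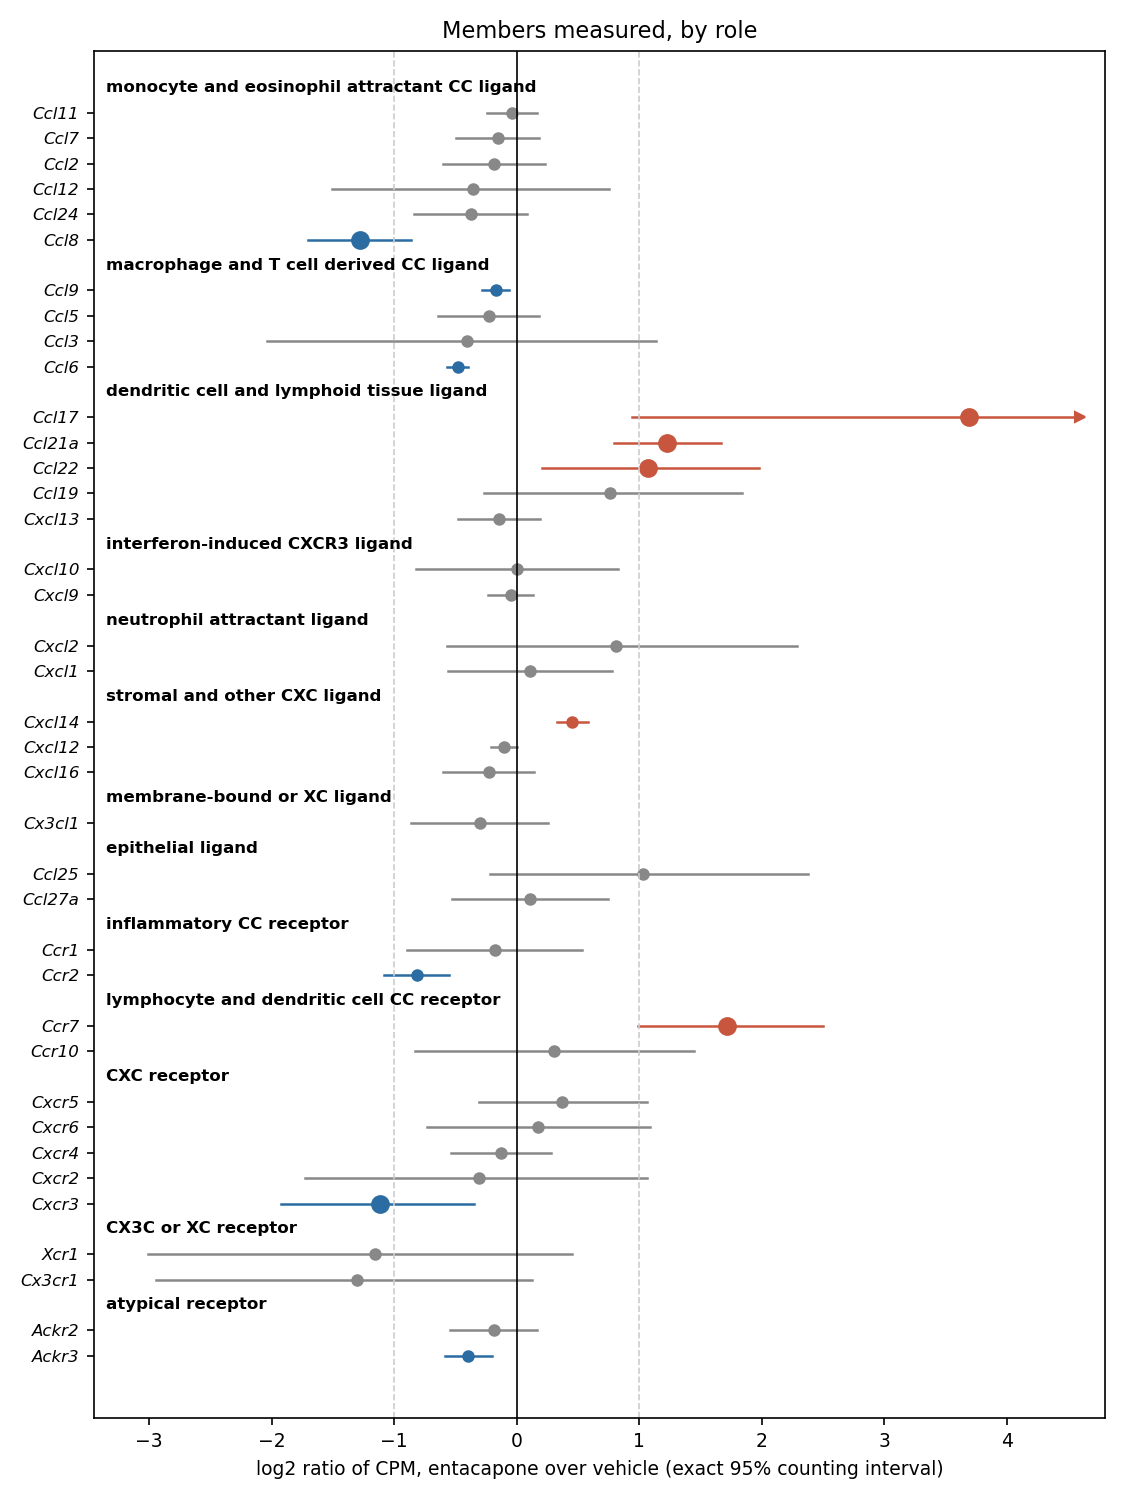
Log2 ratio of CPM (x axis, entacapone over vehicle) for 38 of the 39 members measured, grouped by role, with exact 95% counting intervals as lines. Orange marks genes higher and blue genes lower beyond counting error, large points those that also reached 2-fold, the dashed lines are 2-fold, and the interval of Ccl17 runs past the axis to 9.11; Ccl21a, Ccl22, Ccl17 and Ccr7 lie to the right, while Ccl8, Ccr2 and Cxcr3 lie to the left.

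Ligand transcripts were dominated by few genes. Per kilobase of exon, Ccl6 ranked first of the 25 ligands with 109 (vehicle) and 78.3 (entacapone) CPM per kilobase of exon, a scale called RPKM below. Cxcl14 (37.5 and 51.4), Ccl9 (35.0 and 31.1), Ccl11 (28.4 and 27.7) and Ccl8 (24.8 and 10.2) followed by mean level on the same scale. Ccl6, Cxcl14 and Ccl9 together made up 55.5% of the summed ligand level per kilobase in the vehicle and 54.8% in the entacapone library. Within that near-equal total, the share of Ccl6 was 33.4% in the vehicle and 26.7% in the entacapone library, and that of Cxcl14 was 11.4% and 17.5%. Receptor transcripts were led by Ackr3, with 11.8 and 9.01 RPKM, followed by Cxcr4 (4.52 and 4.15), Ackr2 (3.47 and 3.05), Ccr2 (3.76 and 2.14) and Ccr7 (0.769 and 2.53). These orders depend on the exon length used. By CPM alone, Cxcl12 (8176 exon bases, 113 and 105 CPM) stood above Cxcl14 and Ccl9. Likewise Ccr2 (6760 exon bases, 25.4 and 14.5 CPM) stood above Cxcr4 and Ackr2.

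**Figure D2:**
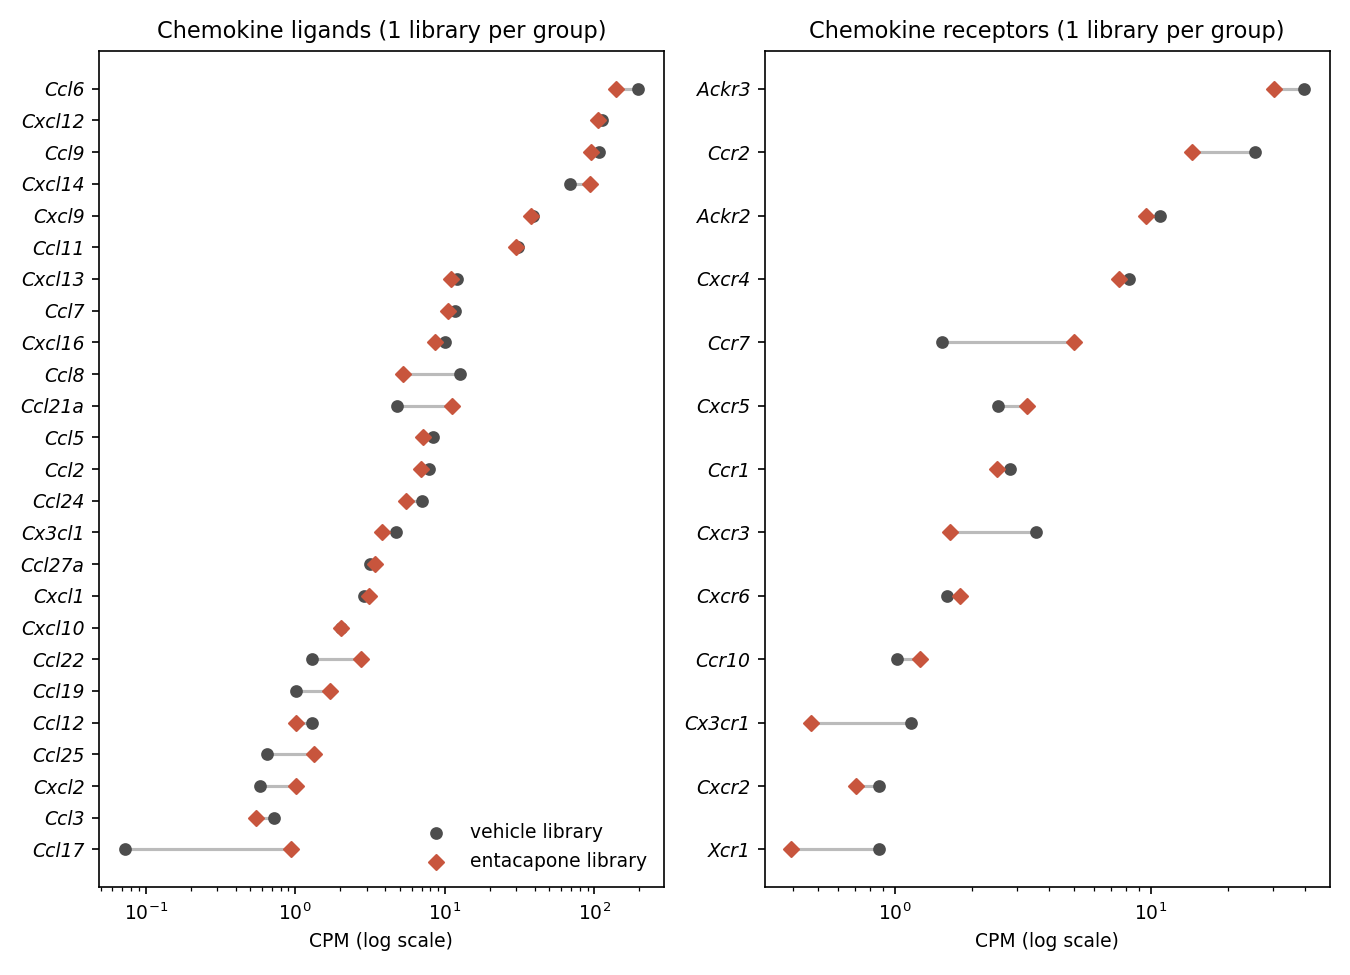
CPM (x axis, log scale) of 38 of the 39 members measured in the vehicle library (grey circles) and the entacapone library (orange diamonds), ligands on the left and receptors on the right, ordered by mean CPM. Most pairs lie close together; the widest gaps among genes with more than 20 reads in each library are those of Ccr7, Ccl8, Ccl21a and Cxcr3.

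Ligands that attract monocytes and eosinophils lie in a row on chromosome 11, where Ccl2, Ccl7, Ccl11, Ccl12 and Ccl8 span 81.2 kb (82035571 to 82116799, GRCm38). Ccl8, which in mice acts on CCR8, was the exception among these neighbours (ENSMUSG00000009185, chromosome 11, 82115185 to 82116799). It had 175 vehicle and 67 entacapone reads, 12.7 against 5.24 CPM, and was 2.42-fold lower (-1.28, -1.70 to -0.86). Its interval did not overlap those of Ccl7, with 162 and 135 reads (-0.15, -0.49 to 0.19), or Ccl2, with 109 and 89 reads (-0.18, -0.60 to 0.23). Ccl2 and Ccl7 both attract monocytes through CCR2, and for neither were the libraries apart beyond counting error. Ccl11 (eotaxin), which attracts eosinophils through CCR3, stood at 30.7 against 29.9 CPM (-0.04, -0.24 to 0.17). Ccl12, another CCR2 ligand, had 18 and 13 reads, with an interval from -1.51 to 0.75 that overlaps that of Ccl8. Ccl24, the second eotaxin, lies on chromosome 5 and was at 7.09 against 5.47 CPM (-0.38, -0.84 to 0.08). All 6 of these ligands had ratios below 1, as had 7198 of all 14497 genes measured, but only Ccl8 was beyond counting error. That is 16.7% of the 6, under the 20.1% of all genes that were lower. The eosinophil markers Siglecf and Prg2 were under 0.5 CPM on average and Epx had no read in either library, and Ccr3 itself had 2 reads in each.

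The macrophage and T cell derived CC ligands Ccl5, Ccl9, Ccl6 and Ccl3 sit within 124 kb further along chromosome 11. Ccl6, a myeloid cell chemokine found in rodents (chromosome 11, 83587882 to 83593087), had 2711 vehicle and 1798 entacapone reads, 196 against 140 CPM. It was 1.40-fold lower (-0.48, -0.57 to -0.40). Its neighbour Ccl9, a CCR1 ligand also made by myeloid cells, had 1474 and 1213 reads, 107 against 94.8 CPM, a smaller difference (-0.17, -0.28 to -0.06). The intervals of Ccl6 and Ccl9 did not overlap. Ccl5 (RANTES), made by activated T cells and macrophages, had 115 and 91 reads, 8.33 against 7.11 CPM (-0.23, -0.64 to 0.18), within counting error. Ccl3, a CCR1 ligand, had only 10 and 7 reads, and its neighbour Ccl4 fell below the limit with 3 and 6. Even at 10 reads in each library the interval reaches 2.68-fold to either side of equality. At these lower counts it was wider, from -2.03 to 1.14 for Ccl3 and from -1.12 to 3.74 for Ccl4.

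Among the receptors for these ligands, Ccr2 was lower. Ccr2, the receptor by which monocytes enter inflamed tissue (ENSMUSG00000049103, chromosome 9, 124101950 to 124113557), had 351 vehicle and 185 entacapone reads. That is 25.4 against 14.5 CPM, 1.76-fold lower (-0.81, -1.08 to -0.55). It falls short of the 2-fold limit. Ccr1, a further receptor of the same cluster, had 39 and 32 reads (-0.18, -0.90 to 0.54), an interval that overlaps that of Ccr2. Thus Ccr2 was lower while the intervals of its ligands Ccl2, Ccl7 and Ccl12 all held equality, and those of Ccl2 (-0.60 to 0.23) and Ccr2 (-1.08 to -0.55) overlap only at their ends.

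Macrophage markers were lower in the same library. All 14 listed were measured, and beyond counting error 12 were lower and 1 (Mertk) was higher, with a median log2 ratio of -0.92 and a summed level of 1729 against 927 CPM. These are 85.7% and 7.14% of the list, beside 20.1% and 19.1% of all genes. The surface receptor Adgre1 was at 64.9 against 21.6 CPM (-1.58, -1.78 to -1.39) and Csf1r, the receptor of a macrophage growth factor, at 180 against 82.3 CPM (-1.13, -1.24 to -1.03). With 0.5 CPM added, as in that median, Ccr2 (-0.79) lay near it and Ccl8 (-1.20) was beyond it. On the same scale Ccl6 (-0.48) and Ccl9 (-0.17) were nearer to equality. Of 5 monocyte markers, only fibronectin (Fn1), which fibroblasts also make, was lower, or 20%, near the 20.1% of all genes. Ly6c2, a marker of classical monocytes, had 40 and 29 reads (-0.35, -1.10 to 0.37). In bulk tissue, fewer cells of a type and less RNA per cell cannot be told apart, and the part of the macrophage markers in the Ccr2 value was not tested.

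**Figure D3:**
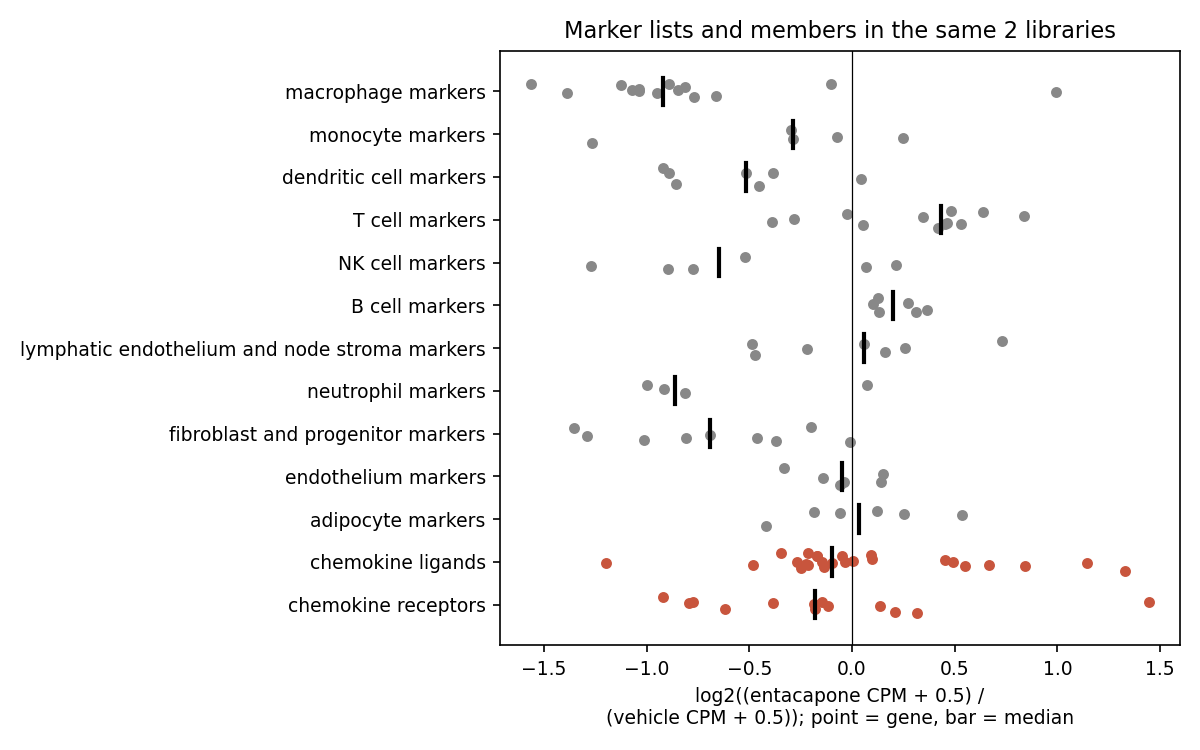
Log2 ratio with 0.5 CPM added (x axis, entacapone over vehicle) for each measured gene of 11 cell type marker lists (grey) and for the 25 ligands and 13 of the 14 receptors (orange), 1 point per gene with the median as a bar. The macrophage median is at -0.92 and the T cell median at 0.44, and the members spread over both sides of 0.

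Ccr7 and Ccl21a were higher in the entacapone library. CCR7 guides mature dendritic cells, naive T cells and B cells into lymphoid tissue, and CCL19 and CCL21 are its ligands. Ccr7 (ENSMUSG00000037944, chromosome 11, 99144196 to 99155077) had 21 vehicle and 64 entacapone reads, 1.52 against 5.001 CPM. It was 3.29-fold higher (1.72, 0.99 to 2.50), the highest ratio among the 14 receptors measured. Ccl21a (ENSMUSG00000094686, chromosome 4, 42772860 to 42773993), made by lymphatic vessels and lymph node stroma, had 66 and 143 reads, 4.78 against 11.2 CPM. It was 2.34-fold higher (1.23, 0.80 to 1.67). Ccl19, 19.5 kb from end to end with Ccl21a, had 14 and 22 reads, and its interval held equality (0.76, -0.27 to 1.84) but also the value of Ccl21a. Ccl21b and the copies named Ccl21a, Ccl21b, Ccl21c and Ccl19 on unplaced scaffolds had no read in either library. The sources used here do not say how reads that match several copies were counted, so the Ccl21a and Ccl19 values may lack such reads and are uncertain as absolute levels.

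Ccl22 and Ccl17, chemokines of dendritic cells and macrophages that act on CCR4, were also higher. Ccl22 (chromosome 8, 94745590 to 94751699) had 18 and 35 reads, 1.303 against 2.73 CPM, 2.099-fold higher (1.07, 0.21 to 1.98). Ccl17 (chromosome 8, 94810453 to 94812036) had 1 vehicle and 12 entacapone reads, and its ratio of 3.70 had an interval from 0.94 to 9.11. Ccl17 was measured only through the entacapone library, with a mean of 0.505 CPM that lies just inside the limit, so that it could enter the comparison only by differing. Cx3cl1, which lies between these genes within the same 66.4 kb, had 65 and 49 reads and an interval that held equality (-0.30, -0.86 to 0.26) and overlapped that of Ccl22 only at its end. Their receptor gene Ccr4 had 1 and 2 reads and was not measured. Cxcl13, the homeostatic ligand that draws B cells through CXCR5, was at 12.2 against 11.0 CPM (-0.14, -0.48 to 0.19). Cxcr5 had 35 and 42 reads (0.37, -0.31 to 1.06). Of the 5 dendritic cell and lymphoid tissue ligands measured, Ccl21a and Ccl22 were higher beyond counting error, Ccl17 was higher but had to differ to be measured, and 0 were lower, beside 19.1% of all genes higher and 20.1% lower.

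The markers beside these genes were mixed. Dendritic cell markers were lower in 4 and higher in 0 of 7 measured (median -0.52, summed level 97.2 against 68.9 CPM), among them Itgax at 24.3 against 13.2 CPM. Zbtb46, a transcription factor of classical dendritic cells, had 292 and 279 reads (0.04, -0.20 to 0.29). Of 12 T cell markers, all measured, 1 (Lck) was higher and 0 lower (median 0.44, summed level 29.3 against 37.2 CPM). Of 6 B cell markers, all measured, 1 (Cd79a) was higher and 0 lower (median 0.20, summed level 29.0 against 34.5 CPM). Lymphatic and lymph node stroma markers were lower in 2 (Lyve1 and Pdpn) and higher in 0 of 7 measured (median 0.06, summed level 75.2 against 64.1 CPM). Lyve1, at 38.2 against 27.0 CPM, was the largest part of that sum. Ratios were above 1 for 4 of the 7, among them Flt4 at 10.6 against 12.8 CPM, all within counting error. Glycam1, a marker of lymph node venules, had 7 and 15 reads. As shares of these lists, 57.1% (dendritic cell) and 28.6% (lymphatic and node stroma) were lower, beside 20.1% of all genes. The higher shares were 8.33% (T cell) and 16.7% (B cell), under the 19.1% of all genes. The inguinal depot holds a lymph node, and the part of node tissue in the Ccr7, Ccl21a and Ccl22 values was not tested.

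The sequences just before the start sites of the called ligands are shown because these genes differed in opposite directions. RefSeq promoters (GRCm38.p6, 250 bases before to 50 after the start) were found for 29 of the 39 members measured. Each run below reads 5′ to 3′ on the gene's strand, from 100 to 5 bases before the RefSeq start, with a TATAAA or TAAATA match in capitals.
Ccl8 (chr11:82115085-82115180, plus strand, lower): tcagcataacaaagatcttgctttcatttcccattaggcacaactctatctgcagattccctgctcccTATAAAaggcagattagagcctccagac
Ccl17 (chr8:94810353-94810448, plus strand, higher): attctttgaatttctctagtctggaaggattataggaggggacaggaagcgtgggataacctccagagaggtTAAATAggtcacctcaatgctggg
Ccl21a (chr4:42773996-42774091, minus strand, higher): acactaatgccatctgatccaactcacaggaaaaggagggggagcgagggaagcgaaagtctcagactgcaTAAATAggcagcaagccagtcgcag
Ccl22 (chr8:94745645-94745670, plus strand, higher, site only): agagagcgttTAAATAtcagaccttc
Ccl12 (chr11:82101804-82101829, plus strand, within counting error, site only): ctttgtgtctTATAAAagtcagatgg

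TATAAA is the core of the TATA box, and its first base lay 32 bases before the start in Ccl8 and 31 in Ccl12. It also lay 30 bases before the start of Cxcr4, a gene within counting error. TAAATA, a variant of it, lay 28 bases before the start in Ccl17 and 29 in both Ccl21a and Ccl22. Among 32544 distinct RefSeq promoters of 300 bases, 13.6% held TATAAA and 13.7% held TAAATA on either strand. With the first base 20 to 45 bases before the start on the gene's strand, the shares were 2.13% and 0.971%. The TAAATA letters also stood 29 and 33 bases before the start of Cxcl9 and 40 and 44 bases before that of Cxcl13, where the latter overlaps a TATAAA match. Both genes were within counting error. The matches are letters in these windows only, and no binding was measured. The printed genes were picked with their calls known, and a link between these letters and the direction of a gene was not tested.

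Cxcr3 was lower, while its ligand Cxcl9 was within counting error. CXCR3 marks activated T cells and natural killer (NK) cells, and CXCL9 and CXCL10 are its interferon-induced ligands. Cxcr3 (ENSMUSG00000050232, chromosome X, 101731535 to 101734269) had 49 vehicle and 21 entacapone reads, 3.55 against 1.64 CPM, and was 2.16-fold lower (-1.11, -1.92 to -0.35). Cxcl9 had 535 and 479 reads, 38.7 against 37.4 CPM (-0.05, -0.23 to 0.13), so its interval and that of Cxcr3 did not overlap. Cxcl10 stood at 2.03 CPM in both libraries on 28 and 26 reads (0.00, -0.82 to 0.83), an interval that overlaps that of Cxcr3. NK cell markers were lower beyond counting error in 2 of 6 (Nkg7 and Klrd1, median -0.65, summed level 9.70 against 5.24 CPM), or 33.3%, beside 20.1% of all genes. T cell markers were not lower, and the part of both lists in the Cxcr3 value was not tested. Cxcr6, another receptor of T cells and NK cells, had 22 and 23 reads (0.17, -0.73 to 1.09). Its ligand Cxcl16, a membrane-bound chemokine of macrophages, had 139 and 110 reads (-0.23, -0.60 to 0.14). Of the Cxcl16 exon bases, 18.3% overlap the gene Zmynd15, and the library kit does not mark the strand.

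Among ligands of stroma, Cxcl12 differed little and Cxcl14 was higher. Cxcl12, the stromal ligand of CXCR4 that retains leukocytes in tissue, had 1562 and 1350 reads, 113 against 105 CPM, and its interval reached equality (-0.10, -0.21 to 0.01). Cxcl14, a chemokine made constitutively by epithelial and stromal tissue (chromosome 13, 56288643 to 56296551), had 946 and 1202 reads, 68.5 against 93.9 CPM. It was 1.37-fold higher (0.46, 0.33 to 0.58), the only CXC ligand beyond counting error among 8 measured. Epithelium markers were higher in 5 of 7 in that library (71.4%, beside 19.1% of all genes), with Krt5, Krt14 and Krt17 among them. Fibroblast markers were lower in 8 of 9 (88.9%, beside 20.1% of all genes), and the part of both lists in the Cxcl14 value was not tested. Cxcr4, the receptor of CXCL12 on leukocytes, had 113 and 96 reads (-0.13, -0.53 to 0.28).

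The atypical receptors were both at or below equality. Ackr3, which scavenges CXCL12 (chromosome 1, 90203980 to 90216751), had 547 and 386 reads, 39.6 against 30.2 CPM, and was 1.31-fold lower (-0.39, -0.58 to -0.20). Its interval overlapped that of its ligand Cxcl12 only at the end, and overlapped that of Cxcr4. Ackr2, which takes up inflammatory CC chemokines, had 150 and 122 reads (-0.19, -0.54 to 0.17).

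Neutrophil attracting ligands were scarce. Cxcl1, a CXCR2 ligand, had 40 reads in each library (0.11, -0.56 to 0.78), and Cxcl2, its close relative, had 8 and 13 (0.81, -0.57 to 2.29). Cxcr2, their receptor on neutrophils, had 12 and 9 reads. Neutrophil markers were lower in 3 of 4 measured (median -0.86, summed level 25.2 against 13.3 CPM), or 75%, beside 20.1% of all genes. Ly6g had no read in either library and Retnlg had 2 in each. Cxcl5, Cxcl3 and Cxcl15 were below the limit, with at most 6 reads in a library. A motif of the NF-kB type, GGG and TTTCC with 2 bases of any kind between them, was searched on both strands because inflammatory stimuli induce these genes through NF-kB. It was present in the promoters of Cxcl1, Cxcl2 and Ccl9 among the 29 members with a promoter, and in 1.61% of all 32544.
Cxcl1 (chr5:90891164-90891193, plus strand, capitals mark the match): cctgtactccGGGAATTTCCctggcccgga
Cxcl2 (chr5:90903792-90903821, plus strand, capitals mark the match): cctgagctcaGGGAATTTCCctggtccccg
Both genes share the same 10 matched letters and stood at or under 3.13 CPM in either library.

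The remaining members had few reads. Cx3cr1, the fractalkine receptor of monocytes and resident macrophages, had 16 and 6 reads (-1.305, -2.95 to 0.12), and Xcr1, a receptor of cross-presenting dendritic cells, had 12 and 5 (-1.15, -3.01 to 0.46). Both passed the limit only through the vehicle library. Ccl25, an epithelial ligand known from thymus and gut, had 9 and 17 reads (1.03, -0.22 to 2.38). Ccl27a, a skin ligand of CCR10, had 44 reads in each library, and Ccr10 had 14 and 16. Ccl27b and the copies named Ccl27 on unplaced scaffolds had no read in either library. As with Ccl21a, the Ccl27a value may lack reads that match several copies. Among the 26 members that were not measured, 13 had no read in either library (7 of these are copies on unplaced scaffolds), and the other 13 had at most 8 reads in a library. A count of 0 allows up to 3 reads, which is 0.217 CPM (vehicle) or 0.234 CPM (entacapone). Just outside the limit lay Cxcl5 and Ccr6 with means of 0.452 and 0.446 CPM, and just inside lay Ccl17 and Xcr1 with 0.505 and 0.630 CPM.

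**Figure D4:**
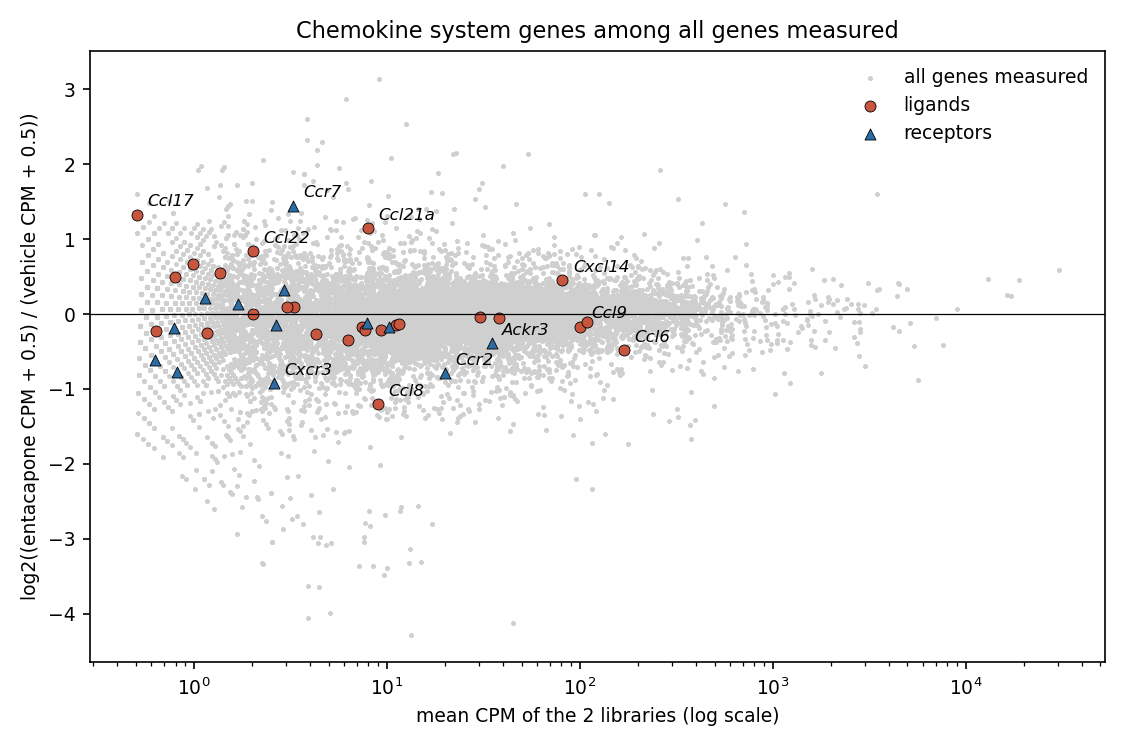
Log2 ratio with 0.5 CPM added (y axis, entacapone over vehicle) against mean CPM (x axis, log scale) for 14497 genes measured (grey), with the 25 ligands as orange circles and 13 of the 14 receptors as blue triangles. Named genes are those beyond counting error, and Ccr7, Ccl22, Ccl17 and Cxcr3 lie below 5 CPM. There the share of all genes called at 2-fold was larger: 5.63% higher and 8.36% lower under 1 CPM, and 5.31% and 10.7% at 1 to 5 CPM. At 5 CPM or more it was 0.781% and 1.77%.

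Level mattered to what could be seen. Of 19 members with a mean of at least 5 CPM, 6 were lower and 2 higher beyond counting error, or 31.6% and 10.5%, against 22.3% and 23.0% of all genes at that level. Of those 19, 17 had ratios below 1, as had 5107 of all 10762 genes at that level. Of 13 members with 1 to 5 CPM, 1 was lower and 2 were higher, or 7.69% and 15.4%, against 16.0% and 8.66% of all genes at that level.

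Genes that carry the chemokine signal inside the cell differed in both directions. All 34 signalling genes listed were measured (median -0.17), and outside counting error 11 lay below and 5 above equality. These are 32.4% and 14.7% of the list, beside 20.1% and 19.1% of all genes. Rgs1, which damps chemokine receptor signalling in leukocytes, was at 5.43 against 2.03 CPM (-1.42, -2.12 to -0.76). Dock2, a Rac activator needed for lymphocyte migration, was at 31.9 against 14.1 CPM (-1.17, -1.43 to -0.92). Rgs2 was the highest (0.67, 0.38 to 0.96), and of the genes above equality outside counting error the kinase gene Ptk2b came next (0.14, 0.03 to 0.24). The widely expressed G protein subunit gene Gnai2 was lower by a small amount, at 373 against 342 CPM (-0.12, -0.18 to -0.07).

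Genes that process or hold chemokines were lower in 8 of 9 measured beyond counting error, with a median of -0.47, beside 20.1% of all genes lower. Their summed level was nearly equal, at 547.6 against 547.3 CPM, with Sdc4 on the other side. Dpp4, a protease that trims the N terminus of several chemokines and also marks adipocyte progenitors, was lowest at 23.5 against 8.91 CPM (-1.40, -1.72 to -1.09). Mmp9 followed at 10.9 against 6.02 CPM (-0.86, -1.28 to -0.46). The exception was Sdc4, a heparan sulfate proteoglycan of the cell surface, at 74.6 against 209 CPM (1.49, 1.38 to 1.59). The sheddases Adam10 (-0.21, -0.36 to -0.06) and Adam17 (-0.22, -0.41 to -0.03), which release CX3CL1 and CXCL16, were lower by small amounts. Fibroblast and progenitor markers were lower in 8 of 9 in this library (median -0.69, summed level 6301 against 4137 CPM), and their part was not tested. Dpp4 is counted in that list as well, and Mmp9 is also counted among the neutrophil markers.

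Inducer genes were higher in 3 and lower in 4 of 14 measured (median -0.10), or 21.4% and 28.6%, near the 19.1% and 20.1% of all genes, with Nfkbia (0.63, 0.51 to 0.75) and Tlr4 (0.31, 0.06 to 0.55) highest. Among those beyond counting error Nfkbie, an inhibitor of NF-kB, was lowest (-0.62, -1.13 to -0.13). Il6 and Ifng had at most 3 reads in a library. Of 9 related attractants and receptors outside the symbol rule, 2 were higher, Mif (0.36, 0.17 to 0.55) and the chemerin gene Rarres2 (0.11, 0.04 to 0.18), and 4 were lower. These are 22.2% and 44.4% of the list, beside 19.1% and 20.1% of all genes. Ccrl2, a chemerin-binding receptor, was lowest (-0.71, -1.32 to -0.13), followed by Cd74 (-0.58, -0.63 to -0.53), a receptor for MIF that also serves antigen presentation.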

How the data were processed

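RNA was taken up in TRIzol, mRNA was purified on Dynabeads and libraries were made with a TruSeq RNA kit, per the labels' protocols. The deposited values are raw counts of reads by Ensembl gene, with 1 table for each library. Per the submitters' processing notes, the authors used TopHat2 2.1.1, HTSeq 0.6.0 and mm10. Which annotation was used, how reads were assigned and what became of multi-mapping reads is not given in the sources used here. Gene identifiers were matched to GENCODE M21 (GRCm38, the assembly of mm10), which gave symbols for 35533 of 37315 genes. The unmatched genes held 0.181% of the vehicle and 0.188% of the entacapone reads and stayed in the library sizes.

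CPM values were computed from the deposited counts with TMM effective library sizes from edgeR 4.0.16 (factors 1.01 for vehicle and 0.986 for entacapone). The limit of 0.5 CPM was applied to the average of both libraries. Each ratio's interval was derived from an exact (Clopper-Pearson) 95% interval for the proportion of a gene's reads that came from the entacapone library; the reads carry no molecular identifiers. It spans a factor of 1.33 to either side at 100 reads per library and 1.09 at 1000. Medians used log2 of CPM plus 0.5. Levels between genes were compared per kilobase of merged exons. Alternatives were total counts, upper-quartile and DESeq2 1.42.0 scaling, other limits on level and size, other pseudocounts and the mean.

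Members with an interval without equality, the 5 ligands and 5 receptors highest per kilobase, and the extreme genes of each list were given in full, apart from 1 member and 1 listed gene that are not reported here but stay in the counts. Members and lists were chosen with earlier results of these data known.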

Additional observations from a re-analysis of the deposited data

How the results depend on the processing

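The 6 members called were 5 with total counts, where the mean of Ccl17 falls under 0.5 CPM, and 6 with DESeq2 size factors and with upper-quartile scaling. With 0.5 CPM required in each library (36 members measured) or a mean of 1 CPM (32 measured), 5 were called, the same genes without Ccl17. With a 1.5-fold limit 4 members were lower in place of 2, as they were without the interval criterion, and with no limit on size 12 were called, 7 of them lower. The ligand median stayed between -0.16 and -0.09 and the receptor median between -0.23 and -0.13 under the scalings, limits and pseudocounts tried, while the ligand mean was 0.07. Each other scaling moved all log2 ratios alike, by -0.04 (total counts), -0.02 (DESeq2 size factors) and 0.01 (upper quartile). Shifts this small could not take any of the 117 member ratios out of its counting interval, so their staying inside is no test. Cxcl10 changed sign with 2 scalings, and Cxcl12 became lower beyond counting error with total counts and DESeq2 size factors. No paired analysis was possible because each group had 1 library, and for the same reason no library could be left out. Depth limited members under 30 reads per library, since the interval reaches 1.72-fold at 30 reads in each library and is wider below that.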
